A study of Mus musculus with 109 samples.

Results

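The genes followed were 9 crystallins (Cryaa, Cryab, Cryba1, Cryba2, Cryba4, Crybb1, Crybb2, Crybb3 and Crygs) and the lens fibre water channel Mip, measured in the mouse retina. They were chosen by name, by taking the rows of their Ensembl identifiers from the count table, which gave 10 of its 37315 genes. The question asked of them was how much of their signal followed other lens genes found in the same dissected retina and how much followed the injected cytokine. The series measured polyA RNA of 109 retinas from 64 mice aged 2 to 4 months, of which 45 mice gave both eyes. Eyes of C57BL/6J mice (WT) or of Sarm1 deficient mice (Sarm1-/-) had received 2 µL of PBS, IL1A (0.1 µg/µL), TNF (0.05 µg/µL) or IL1A+TNF into the vitreous, and each retina was dissected whole.

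The WT retinas of batch 1 comprised, at day 2, 31 injected with PBS, 9 with IL1A, 8 with TNF and 10 with IL1A+TNF. At day 14 there were 7 with PBS and 6 with TNF, and at day 35 there were 6 with PBS and 9 with TNF. Batch 2, all at day 2, held 5 WT retinas with PBS and 6 with IL1A+TNF, and 6 Sarm1-/- retinas with PBS and 6 with IL1A+TNF. Every eye in these groups, controls included, had been opened by an injection into the vitreous beside the lens, and no uninjected eye was analysed here. Sarm1-/- mice lack Sarm1, an axon degeneration gene, in all tissues, and were other animals than the WT mice. Reads on Sarm1 were still counted in Sarm1-/- retinas, at 28.8 to 53.2 CPM (counts scaled to a common library total, median 43.4, n = 12) against 87.3 to 124 CPM (median 107, n = 11) in the WT retinas of batch 2, with no overlap between the genotypes. Total counts ran from 30014757 to 79064488 per retina.

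The lens is built of fibre cells that fill themselves with crystallins, the proteins that give it its refractive power, and that shed their nuclei as they mature. Cryaa and Cryab encode the alpha crystallins, small heat shock proteins that keep other proteins from aggregating, whereas the beta and gamma crystallins (Cryba, Crybb and Cryg genes) are structural relatives of each other without that chaperone core. Cryab is also made in many other tissues under stress, including glia and muscle, and transcripts of several crystallins have been described in the retina itself. Mip encodes aquaporin-0, the main membrane protein of lens fibres.

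In mm10, with the gene bounds of GENCODE M21, Cryaa spans chr17:31677807-31681733, Cryab chr9:50751325-50756636, Cryba1 chr11:77718615-77725283, Cryba2 chr1:74889934-74893143, Crygs chr16:22805203-22811577 and Mip chr10:128225838-128231812. The remaining 4 are all on chromosome 5, with Cryba4 (chr5:112246493-112252518) and Crybb1 (chr5:112255815-112269585) transcribed away from each other, and Crybb2 (chr5:113058258-113070117) and Crybb3 (chr5:113075839-113081584) side by side on the minus strand. Cryab shares 252 exon bases, 17.04% of its exons, with Hspb2 on the opposite strand, and 57.04% of the exon bases of Mip lie opposite the RNA gene Gm26847. The sources used here do not say whether the counting used strand, so reads on those shared bases cannot be assigned with certainty. Promoter sequences were printed for 5 of the 9 members found in the promoter table (RefSeq, GRCm38.p6, 5′ to 3′ on the gene's strand), because 4 of them hold the letters TGCTGAC of the element bound by Maf, a transcription factor of lens fibre cells, and the fifth, Crybb3, a gene that differed between treatments, does not. RefSeq starts and GENCODE bounds can differ: the RefSeq start of Cryaa lies inside its GENCODE bounds, and so do the letters marked there. Capitals mark TGCTGAC and the TATA letters TATAAA.

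Cryaa (chr17:31677731-31677930, + strand): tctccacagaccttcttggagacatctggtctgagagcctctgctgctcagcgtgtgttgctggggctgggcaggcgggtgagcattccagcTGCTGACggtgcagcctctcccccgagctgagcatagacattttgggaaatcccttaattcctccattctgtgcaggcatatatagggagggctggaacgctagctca
Cryba1 (chr11:77725294-77725493, - strand): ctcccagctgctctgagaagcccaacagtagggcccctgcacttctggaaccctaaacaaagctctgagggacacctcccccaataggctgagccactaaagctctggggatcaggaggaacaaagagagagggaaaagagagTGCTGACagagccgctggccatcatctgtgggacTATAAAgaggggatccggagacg
Cryba4 (chr5:112252519-112252718, - strand): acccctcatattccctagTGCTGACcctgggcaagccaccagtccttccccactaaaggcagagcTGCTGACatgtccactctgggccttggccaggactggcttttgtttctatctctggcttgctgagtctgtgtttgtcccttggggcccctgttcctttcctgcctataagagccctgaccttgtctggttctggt
Crybb1 (chr5:112255620-112255819, + strand): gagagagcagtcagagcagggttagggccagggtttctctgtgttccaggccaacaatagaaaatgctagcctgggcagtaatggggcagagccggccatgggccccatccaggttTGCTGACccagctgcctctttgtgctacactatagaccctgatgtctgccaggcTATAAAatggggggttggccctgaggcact
Crybb3 (chr5:113081585-113081784, - strand): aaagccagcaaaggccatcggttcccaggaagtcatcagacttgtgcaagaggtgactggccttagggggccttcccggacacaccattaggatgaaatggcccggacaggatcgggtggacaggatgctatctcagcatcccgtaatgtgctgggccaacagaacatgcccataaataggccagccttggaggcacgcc

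In the 250 bases before the RefSeq start, TGCTGAC was found on either strand in 1252 of 32851 promoters (3.81%) and in 4 of the 9 members: Cryaa at 108 bases, Cryba1 at 57, Crybb1 at 84 and Cryba4 at both 135 and 182 bases before the start. TATAAA on the gene's strand was found in 2494 promoters (7.59%) and in Cryba1, Crybb1 and Crygs. The heat shock element letters GAANNTTC, searched on both strands, were in 2199 promoters (6.69%) and in 0 of the 9 members. Cryab, the small heat shock gene, is the member without an entry in that table, so none of these searches covers it.

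Of the 109 retinas, 13 stood apart on lens genes that are not among the 10. The summed level of the lens connexin gene Gja3 and the lens galectin-like gene Grifin was 3.17 to 38.9 CPM in those 13 and at most 1.26 CPM in the other 96, with nothing in between. A limit of 2 CPM, set in that gap after the values had been seen, called the 13 lens-rich. They were 5 of 55 PBS retinas, 1 of 9 IL1A, 2 of 23 TNF and 5 of 22 IL1A+TNF retinas, 8 of 58 left and 5 of 51 right eyes, and 8 of 86 in batch 1 and 5 of 23 in batch 2. They came from 12 of the 64 mice, and among the 45 mice with both eyes, 10 had 1 lens-rich eye and 1 had 2. None was found among the 7 day 14 PBS retinas or the 15 retinas of day 35.

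The 10 members rose with these non-member lens genes in the same retinas. Cryaa was 340 to 4134 CPM (median 1877) in the 13 lens-rich retinas and 0 to 92.6 CPM (median 0.861) in the other 96, where it had no read in 11. Crybb2 was 93.0 to 1109 CPM (median 491) against 0 to 25.3 CPM (median 0.320), and Cryba1 was 28.01 to 677 CPM (median 336) against 0.0199 to 19.1 CPM (median 0.560). These 3 genes had no overlap between lens-rich and other retinas. Crygs, the gamma crystallin of the adult lens, had 24.3 to 375 CPM (median 171) against 0 to 10.8 CPM (median 0.301), also without overlap. Cryba2, Cryba4, Crybb1 and Crybb3 likewise did not overlap, with lens-rich medians of 127, 39.3, 50.5 and 98.2 CPM against 0.168, 0.244, 0.395 and 0.931 CPM. Mip had 3.71 to 209 CPM (median 82.0) against 0.248 to 4.46 CPM (median 0.600), and 1 other retina reached above the lowest lens-rich retina. By the ratio of the 2 medians Cryab differed least, at 152 to 1290 CPM (median 582) against 16.8 to 137 CPM (median 36.9), also without overlap. The share of all genes without overlap between these retinas was not counted, so the lack of overlap is a description of the members.

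**Figure D1:**
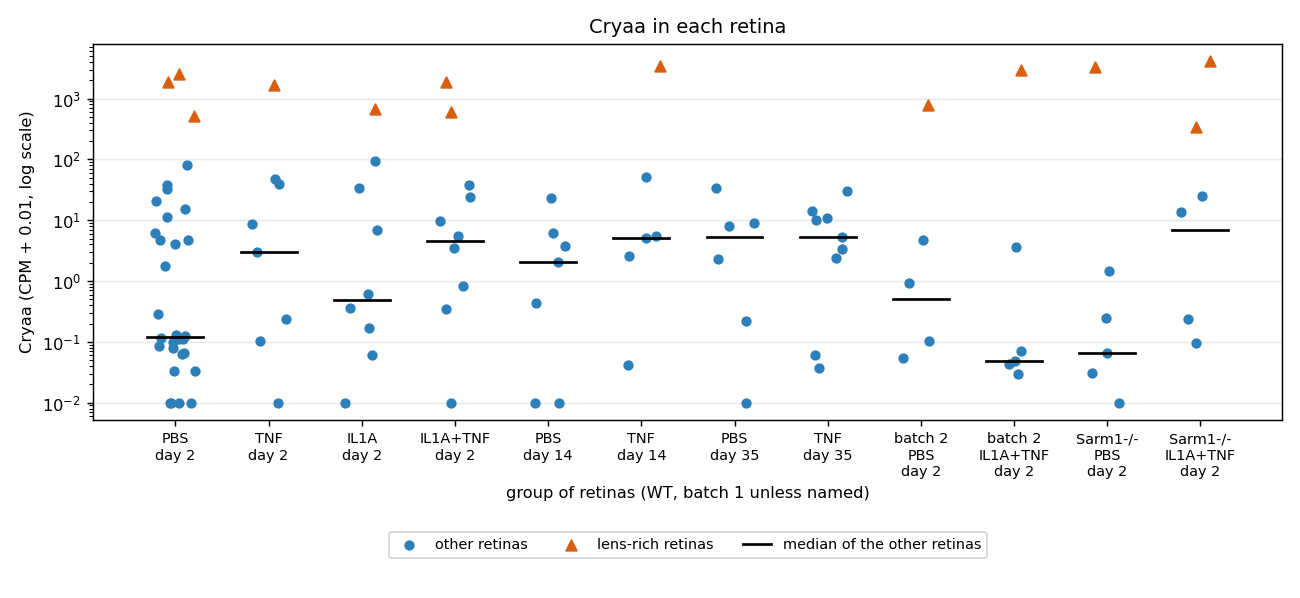
Cryaa level (CPM + 0.01, log scale) in each of the 109 retinas by group, with lens-rich retinas as triangles, the others as circles and the median of the others as a bar. The 13 lens-rich retinas lie between 340 and 4134 CPM in 9 of the 12 groups, PBS groups included, and the others lie at 92.6 CPM or below.

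Within the lens-rich retinas Cryaa ranged from 340 to 4134 CPM, and the other members varied to different degrees relative to it. Crybb2 was 24.2 to 32.5% of Cryaa, Cryab was 26.7 to 44.6% and Crygs was 6.74 to 13.3%. Cryba2 was 3.60 to 8.51% and Crybb3 was 3.09 to 7.22%. Cryba1 was 8.13 to 22.8%, Crybb1 was 1.43 to 3.70% and Cryba4 was 0.962 to 3.98%. Mip varied most, from 0.871 to 7.86%, and its 2 lowest ratios were the 2 lens-rich Sarm1-/- IL1A+TNF retinas (replicates 5 and 6). The same retinas had the 2 lowest ratios of Cryba1, Cryba2 and Crygs, but not of the other members. Of the 15 other genes listed as particular to the lens, several defining ones were near 0 even there: the fibre membrane gene Lim2 did not exceed 0.143 CPM and Lenep did not exceed 0.215 CPM. Summed over all 15 genes, the level was 14.3 to 186 CPM (median 54.8) in lens-rich retinas and 0.770 to 27.8 CPM (median 2.66) in the others. Summed cornea markers were also higher, at 4.77 to 232 CPM (median 23.9) against 0.280 to 130 CPM (median 1.77), with overlapping ranges. By median only Aldh3a1 of that list was clearly higher, at 23.2 against 0.458 CPM. Krt5 (0.678 against 0.718 CPM), Krt14 (0.352 against 0.333 CPM), Krt12 and Kera differed little. Summed retina markers overlapped nearly throughout, at 16581 to 33572 CPM against 14623 to 42087 CPM. Where this lens signal came from was not tested.

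Below the limit the signal was graded and did not stop at 0. Cryaa was over 1 CPM in 47 of the 96 other retinas and over 10 CPM in 21 of them. The highest of these, IL1A replicate 5 at day 2, had 92.6 CPM of Cryaa, 25.3 CPM of Crybb2 and 67.0 CPM of Cryab. PBS replicate 28 at day 2 followed with 81.01 CPM of Cryaa, 24.2 CPM of Crybb2 and 55.8 CPM of Cryab. Both were the highest retina of their group for Cryab once lens-rich retinas were set aside.

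Only Cryab had a level well above 0 in retinas with little lens signal. Per kilobase of exon, in the 28 day 2 PBS retinas that were not lens-rich, Cryab had a median of 24.7 CPM/kb (15.9 to 37.7), whereas the next, Crybb1, had 0.401 CPM/kb. Crybb3 had 0.348, Mip 0.277, Cryba4 0.254 and Cryba1 0.245 CPM/kb, and Cryba2, Crygs, Crybb2 and Cryaa had 0.106, 0.0623, 0.0594 and 0.0525 CPM/kb. For scale, the Müller glia enzyme gene Glul had 549 CPM/kb in the same retinas. In lens-rich retinas the order was another one, led by Cryaa at a median of 904 CPM/kb, followed by Cryab at 393 and Crybb2 at 244 CPM/kb. The neighbours Crybb1 to Cryba1 in the first order have ranges that overlap widely, and their order is a description of medians.

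Over the same 28 retinas the members followed each other to different degrees. The 7 crystallins other than Cryab and Crybb3 rose and fell together, with Pearson r of 0.768 to 0.984 over their 21 pairs (median 0.870, log2 CPM). Crybb3 followed those 7 at r of 0.577 to 0.754 (median 0.737) and Mip at 0.467 to 0.603 (median 0.557). Cryab followed them at 0.271 to 0.435 (median 0.366). Cryab and Crybb3 were correlated at 0.63, and Cryab and Mip at -0.01. The points share library, depth and dissection, and counts of most members are low, so these coefficients are given as a description. No gene of 19548 passed an adjusted permutation p of 0.05 for correlation with Mip over these 28 retinas, and the adjusted p of Cryaa was 0.130.

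**Figure D2:**
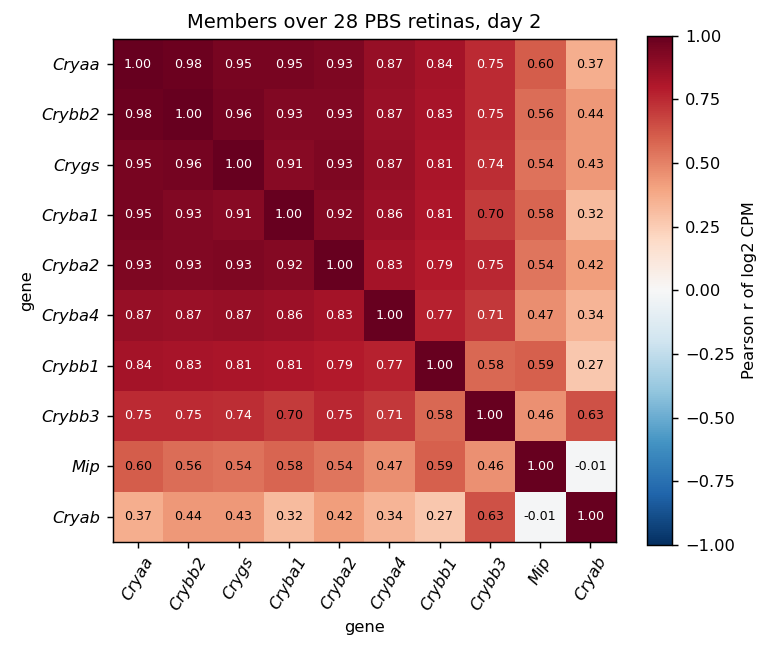
Pearson r of log2 CPM for each pair of the 10 genes over the 28 day 2 PBS retinas that were not lens-rich, with colour and printed value giving r. The 7 crystallins Cryaa, Cryba1, Cryba2, Cryba4, Crybb1, Crybb2 and Crygs form a block at 0.768 or above, and Cryab has its highest value, 0.63, with Crybb3.

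Ranked over all 31 day 2 PBS retinas, the 10 non-member genes closest to Mip included Grifin, Gja3, Sox1ot, Cd24a, Lctl, Tmem40, R3hdml, Aldh3a1 and Nnat. Of the 10 closest to Cryab, 7 were shared with these, and Vit, Nid1 and Lix1 were added. The 3 lens-rich retinas set these ranks. Over the 28 others, r with Mip fell to 0.614 for Grifin and 0.382 for Gja3, and r with Cryab was 0.159 for Grifin and 0.583 for Cd24a. In a ranking over those 28, added after seeing the data, Cryab was closest to Gng5 (r 0.844), Cyb5r3 and Lamp1, and no lens gene was among its first 10.

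The first comparison asked whether the members differed at day 2 between cytokine and PBS in WT retinas of batch 1. With all 58 retinas, IL1A+TNF differed from PBS in 50.4% of the 19548 genes tested (limma FDR under 0.05), and 1 of the 10 members, Crybb3, was among them. Crybb3 was 1.54 higher on the log2 scale (SE 0.64, FDR 0.0375). Cryab was 0.90 higher (SE 0.40, FDR 0.0519) and the other 8 were 0.50 to 2.19 higher with SE of 0.80 to 1.52 (FDR 0.133 to 0.625). Here 2 of 10 IL1A+TNF and 3 of 31 PBS retinas were lens-rich, and without IL1A+TNF replicate 2 or 6, both lens-rich, the Crybb3 call was lost (highest FDR 0.186). IL1A called 21.4% of genes and TNF 0.655%, with 0 members in either (smallest FDR 0.522 and 0.868, and 0 members at an unadjusted p under 0.05). All 10 members passed the expression filter of this fit.

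Without the 7 lens-rich retinas, Cryab was higher after IL1A+TNF and after IL1A, and Crybb3 after IL1A+TNF. Cryab was 55.6 to 83.5 CPM (median 57.9) in the 8 IL1A+TNF retinas, 37.1 to 67.0 CPM (median 48.3) in the 8 IL1A retinas, 19.8 to 56.2 CPM (median 37.5) in the 7 TNF retinas and 23.6 to 55.8 CPM (median 36.6) in the 28 PBS retinas. Of the 8 IL1A+TNF retinas, 7 were above every PBS retina and all 8 above the PBS median, and 2 of 28 PBS retinas reached the lowest of them. The IL1A and PBS ranges overlapped, with 2 of 8 above the highest PBS retina and 8 of 8 above the PBS median. TNF retinas lay on both sides of the PBS median, 4 of 7 above it. The change in Cryab was 0.70 (SE 0.12) for IL1A+TNF, a 1.62-fold difference (FDR 2.66e-06), and 0.44 (SE 0.12) for IL1A, a 1.36-fold difference (FDR 0.00648). With mouse as a fixed factor the IL1A difference was 0.40 and was not called (FDR 0.295). For TNF it was -0.02 (SE 0.13, FDR 0.978). These comparisons share the same 28 PBS retinas, and they called 42.8%, 17.6% and 0.046% of 19550 genes. Over the 10 members, the log2 differences were 0.16 to 1.45 for IL1A (FDR 0.00648 to 0.784, Cryab called) and -0.02 to 1.79 for TNF (FDR 0.736 to 0.978, none called). In whole retinas, a change in the number of cells of a type and a change in RNA per cell cannot be told apart.

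Crybb3, a structural beta crystallin, was 1.16 to 4.91 CPM (median 2.36) after IL1A+TNF and 0.216 to 4.73 CPM (median 0.812) after PBS. All 8 IL1A+TNF retinas were above the PBS median, 1 was above the highest PBS retina, and 9 of 28 PBS retinas reached the lowest of them. The difference was 1.11 (SE 0.29, 2.15-fold, FDR 0.00158). With mouse as a fixed factor, which compares the eyes within animals, it was 0.42 (SE 0.60, FDR 0.664), whereas Cryab was 0.62 (SE 0.20, FDR 0.0280). After IL1A alone Crybb3 was 0.921 to 4.40 CPM (median 1.44), 0.85 higher on the log2 scale (SE 0.31, FDR 0.0518). After TNF it was 0.246 to 4.71 CPM (median 1.13), 0.36 higher (SE 0.37, FDR 0.827).

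The other 8 members did not pass the test in the same retinas, with log2 differences of -0.18 to 1.14 for IL1A+TNF (FDR 0.242 to 0.819, 6 of 8 positive). Cryaa was 0 to 37.9 CPM (median 4.52) after IL1A+TNF and 0 to 81.01 CPM (median 0.109) after PBS, and its difference had an SE of 1.27. Mip was 0.372 to 0.897 CPM (median 0.590) after IL1A+TNF and 0.248 to 2.32 CPM (median 0.594) after PBS, a difference of -0.16 (SE 0.27). Summed over the 15 lens-only genes, residual lens signal overlapped between the groups, at 1.39 to 4.61 CPM (median 3.11) after IL1A+TNF and 0.960 to 17.4 CPM (median 2.61) after PBS. It was 1.55 to 11.3 CPM (median 3.67) after IL1A and 0.892 to 27.8 CPM (median 2.09) after TNF. By Cryaa the groups were less alike, with 7 of 8 IL1A+TNF retinas above the PBS median. The sum did not follow Cryaa in every retina. PBS replicate 30 had a sum of 4.80 CPM (3.70 CPM of it Bfsp2) with 0.0565 CPM of Cryaa, and PBS replicate 17 a sum of 1.77 CPM with 37.2 CPM of Cryaa. With the mean of those 15 genes as a covariate, the Cryab difference for IL1A+TNF was 0.68 (FDR 1.54e-06) and that of Crybb3 1.05 (FDR 0.000122). That covariate is built from low counts of other lens genes and is circular for the members. It does not show how much of these differences is lens signal. Of the lens-only genes themselves, 0 of 9 tested were called with all retinas and 0 of 7 without the lens-rich ones.

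**Figure D3:**
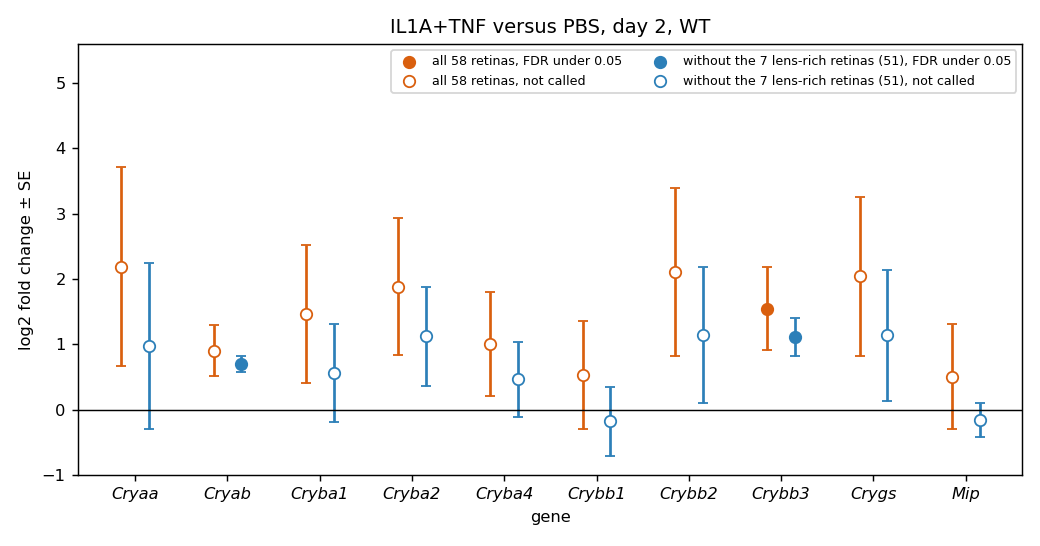
Log2 fold change of IL1A+TNF versus PBS at day 2 in WT retinas with its SE, for each of the 10 genes, with all 58 retinas and without the 7 lens-rich ones. Filled points passed FDR 0.05 and open points did not: without the lens-rich retinas the SE of Cryab falls from 0.40 to 0.12, and Cryab and Crybb3 are called.

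**Figure D4:**
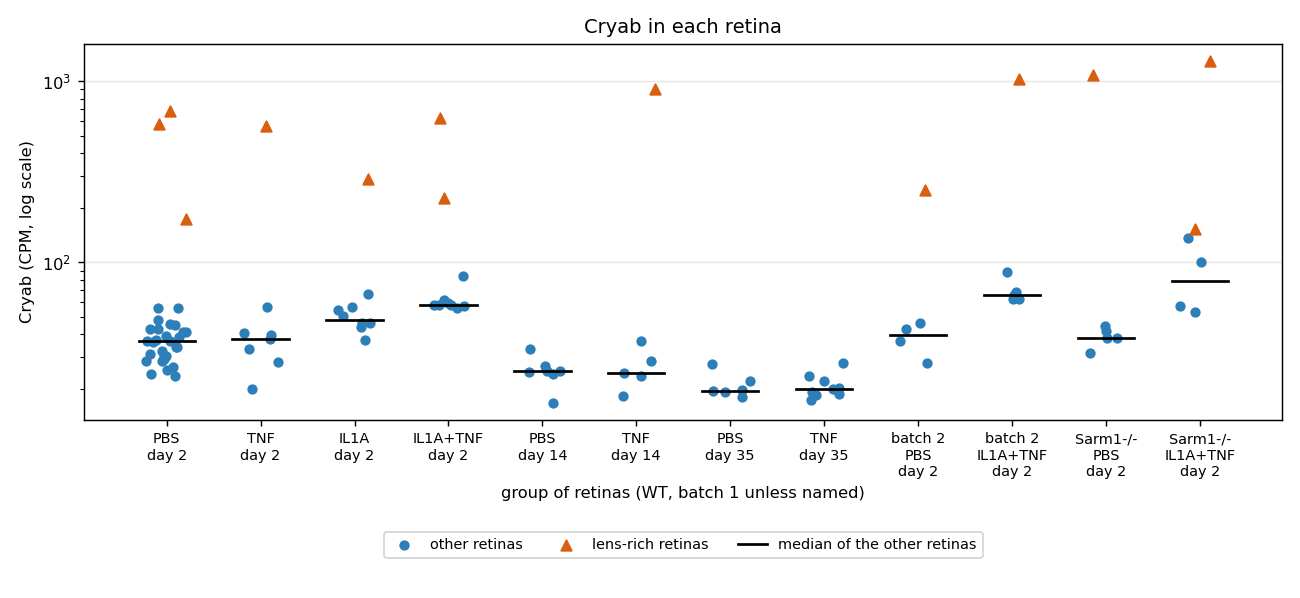
Cryab level (CPM, log scale) in each retina by group, with lens-rich retinas as triangles and the median of the others as a bar. Among the others, IL1A+TNF groups have medians of 57.9, 65.9 and 78.6 CPM, day 2 PBS groups 36.6, 39.6 and 38.2 CPM, and day 35 groups 19.5 and 19.99 CPM.

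The cytokines were also compared with each other in those retinas. IL1A+TNF had more Cryab than TNF, by 0.71 (SE 0.16, FDR 0.000376), in a comparison that called 33.7% of genes. With mouse as a fixed factor it was 0.62 and was not called (FDR 0.246). Against IL1A alone the Cryab difference was 0.26 (SE 0.15, FDR 0.348), with 5.6% of genes called. The part of the IL1A+TNF effect beyond the sum of the single effects was 0.28 (SE 0.20, FDR 0.521) for Cryab, and 1.3% of genes were called. Crybb3 was 0.75 higher in IL1A+TNF than in TNF (FDR 0.156). Against IL1A and beyond the sum, 0 members were called. With all 58 retinas 10.1% of genes were called against IL1A, 39% against TNF and 3.6% beyond the sum, with 0 members in each.

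Within mice that gave a treated and a PBS eye, all retinas included, Cryab was higher in the treated eye in 8 of 8 mice for IL1A+TNF in batch 1 (mean log2 difference 1.06, SD 0.76) and in 6 of 7 for IL1A. It was higher in 4 of 8 for TNF at day 2, 1 of 4 at day 14 and 3 of 6 at day 35. Crybb3 was higher in 6 of 8 mice for IL1A+TNF, Cryaa in 5 of 8 (Cryaa mean log2 difference 2.19, SD 6.15) and Mip in 3 of 8. The lens-only sum was higher in the IL1A+TNF eye of 4 of the same 8 mice (mean 0.35, SD 1.87, exact two-sided sign-flip permutation p 0.641, smallest possible 0.00781). Over the 7 such pairings tested for the lens-only sum the raw exact permutation p was 0.406 to 1, and the adjusted p was 1 in each.

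**Figure D5:**
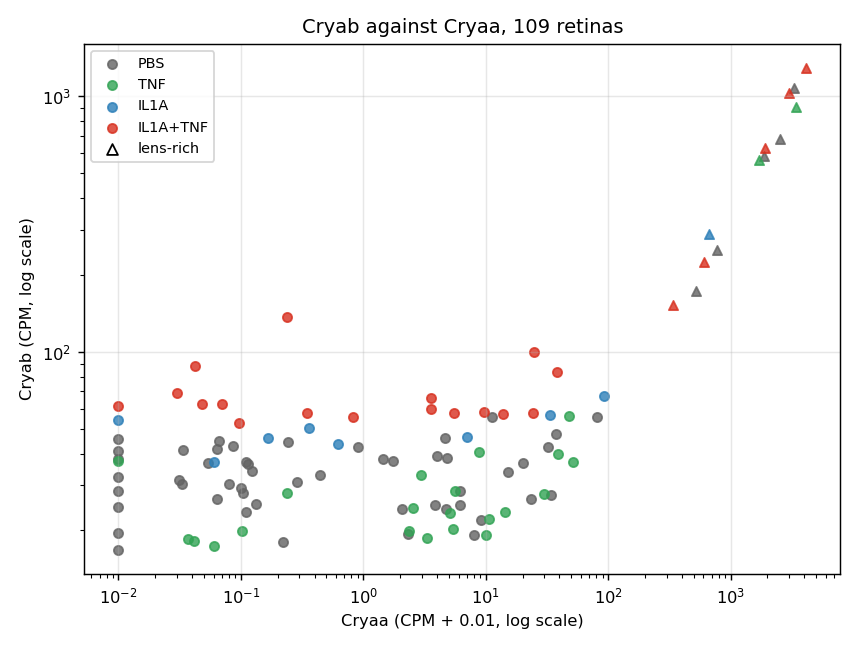
Cryab (CPM, log scale) against Cryaa (CPM + 0.01, log scale) in 109 retinas coloured by treatment, with lens-rich retinas as triangles. The 13 triangles run up to the right, from 340 to 4134 CPM of Cryaa and 152 to 1290 CPM of Cryab, and the other retinas lie at or below 92.6 CPM of Cryaa and 137 CPM of Cryab.

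Day 2 retinas of batch 2 gave the same comparison in other animals and another genotype. In WT retinas that were not lens-rich, Cryab was 27.9, 36.7, 42.5 and 45.9 CPM after PBS and 62.6, 62.8, 65.9, 68.9 and 87.9 CPM after IL1A+TNF. The 5 IL1A+TNF retinas were all above the 4 PBS retinas. In Sarm1-/- retinas it was 31.4, 38.0, 38.2, 41.7 and 44.3 CPM after PBS and 52.9, 57.2, 100.1 and 137 CPM after IL1A+TNF, again without overlap. Of those 4 Sarm1-/- retinas, the highest (replicate 4) had 0.227 CPM of Cryaa and the next (replicate 3) had 24.8 CPM. The share of all genes without overlap between such small groups was not counted, so the lack of overlap is a description of Cryab.

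In the joint fit of both batches without lens-rich retinas, Cryab was 0.71 higher in WT (SE 0.10, FDR 2.62e-08) and 1.00 higher in Sarm1-/- (SE 0.20, FDR 5.49e-05), where 48.2% and 37.2% of 20363 genes were called. Crybb3 was 1.02 higher in WT (SE 0.25, FDR 0.000468) and 1.80 higher in Sarm1-/- (SE 0.52, FDR 0.00423). With mouse as a fixed factor the WT difference of Crybb3 was 0.52 and was not called (FDR 0.408). In Sarm1-/- retinas Crybb3 was 0.482 to 0.689 CPM after PBS, and 1.04, 1.36, 3.16 and 3.86 CPM after IL1A+TNF, without overlap (share of all genes not counted). In the same order, those IL1A+TNF retinas had 0.0869, 0.227, 24.8 and 13.7 CPM of Cryaa, and the PBS retinas at most 1.42 CPM. The part of this lens signal in the Crybb3 difference was not tested. In WT retinas of batch 2, 1 of 4 PBS retinas reached the lowest Crybb3 of the IL1A+TNF retinas. In batch 2 alone the Cryab difference was 0.77 in WT (SE 0.20, FDR 0.0159) and 1.04 in Sarm1-/- (SE 0.20, FDR 0.00482), and that of Crybb3 was 0.71 in WT (FDR 0.216) and 1.78 in Sarm1-/- (SE 0.40, FDR 0.0107). With all retinas the joint fit called Cryab in WT only (0.92, SE 0.39, FDR 0.0414, 54.8% of 20154 genes) and no member in Sarm1-/- (Cryab 1.02, SE 0.71, FDR 0.256, 43.5% of genes). There, 3 of 12 Sarm1-/- retinas were lens-rich. Markers of other tissues moved with treatment in the Sarm1-/- retinas that were not lens-rich: 8 of 9 pigment epithelium and iris genes fell (median log2 difference over the list -3.22), with a summed level of 17.2 to 165 CPM (median 85.6) after IL1A+TNF and 297 to 982 CPM (median 512) after PBS. The blood genes Hba-a1 and Hbb-bs rose, and the 5 blood genes summed to 19.9 to 99.0 CPM (median 52.7) against 17.2 to 31.9 CPM (median 24.4). In the same comparison 7 of 8 retina genes and 4 of 6 Müller glia genes fell, as did Bfsp2, the only lens-only gene called of 8 tested. Summed Müller glia markers were 1353 to 2768 CPM after IL1A+TNF and 2608 to 4425 CPM after PBS. Summed lens transcription factors were 496 to 937 CPM (median 871) after IL1A+TNF and 877 to 921 CPM (median 897) after PBS. The part of these markers in the Cryab and Crybb3 differences was not tested.

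The genotypes themselves were not separated by any member. Without lens-rich retinas, Sarm1-/- minus WT was -0.03 for Cryab after PBS (SE 0.18), where 0.0393% of genes were called, and 0.26 after IL1A+TNF (SE 0.18, FDR 0.420), where 8.23% were called. The genotype by treatment term was 0.29 for Cryab (SE 0.22, FDR 0.529) and 0.78 for Crybb3 (SE 0.58, FDR 0.512), with 3.59% of genes called. Over the 10 members, FDR was 0.242 to 0.981 for the genotypes after IL1A+TNF and 0.429 to 0.943 for the genotype by treatment term. With all retinas 0.0397% of genes were called after PBS, 14.8% after IL1A+TNF and 8.75% for the genotype by treatment term, with 0 members in each. These intervals are wide, with 4 and 5 retinas in the Sarm1-/- groups, and do not show that the genotypes were alike.

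At day 14 and day 35 TNF and PBS retinas were compared within each day. Cryab was 18.2 to 36.9 CPM (median 24.5, n = 5) after TNF and 16.8 to 33.0 CPM (median 25.2, n = 7) after PBS at day 14, without the lens-rich TNF replicate 4, which had 909 CPM. The difference was 0.03 (SE 0.14), against 0.64 (SE 0.64) with that retina. At day 35 it was 17.4 to 27.7 CPM (median 19.99, n = 9) and 17.98 to 27.5 CPM (median 19.5, n = 6), a difference of -0.02 (SE 0.09). limma called 0 of 18023 genes at day 14 (838 at an unadjusted p under 0.05) and 0 of 17821 at day 35 (871), so 0% of genes and 0 members. Over the 10 members, the log2 differences were -0.25 to 0.47 at day 14 without the lens-rich retina (FDR 0.939 to 0.997) and -0.80 to 0.23 at day 35 (FDR 0.889 to 0.997).

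Among PBS retinas, Cryab fell with time after injection. Without lens-rich retinas it was 23.6 to 55.8 CPM at day 2 (n = 28), 16.8 to 33.0 CPM at day 14 (n = 7) and 17.98 to 27.5 CPM at day 35 (n = 6), and 24 of the 28 day 2 retinas were above every day 35 retina. It fell by 0.49 from day 2 to day 14 (SE 0.13, FDR 0.00523, 19.8% of genes called) and by 0.71 from day 2 to day 35 (SE 0.14, FDR 0.000109, 32.8% of genes called). The 7 day 14 retinas came from 6 mice, and this fit over PBS retinas had no mouse block, so replicates 2 and 3, the eyes of 1 animal, entered as separate retinas. The fall of Cryab to day 14 was called in 41 of 41 fits that left out 1 retina each, those 2 included (highest FDR 0.0274). From day 14 to day 35 the difference was -0.22 (SE 0.17, FDR 0.519, 4.36% of genes called). Cryaa was 0 to 81.01 CPM (median 0.109) at day 2 and 0 to 33.9 CPM (median 5.20) at day 35, ranges that overlap throughout. Cryaa, Crybb2 and Crygs were called higher at day 35 than at day 2 by 2.80 (SE 1.06, FDR 0.0373), 2.78 (SE 0.85, FDR 0.00969) and 2.36 (SE 0.91, FDR 0.0417), and all 3 calls were lost without day 35 PBS replicate 4 (FDR 0.285, 0.0937 and 0.229), and edgeR called 1 member between those days, Cryab. With all PBS retinas 36.2% of 19372 genes differed by day in the limma F test and 0 members did (Cryab FDR 0.0861; 19.2% of genes were called from day 2 to day 14 and 4.25% from day 14 to day 35, with 0 members), against 36.3% and 3 members (Cryaa, Cryab and Crybb2) without the lens-rich ones. Dates of injection and dissection are not given in the sources used here, so day and collection cannot be told apart.

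Across the 12 groups without lens-rich retinas, the median of Cryab ran from 19.5 CPM (day 35 PBS) and 19.99 CPM (day 35 TNF) through 24.5 and 25.2 CPM at day 14 and 36.6 to 39.6 CPM in the day 2 PBS and TNF groups to 48.3 CPM (IL1A), 57.9 CPM (IL1A+TNF, batch 1), 65.9 CPM (IL1A+TNF, batch 2) and 78.6 CPM (Sarm1-/-, IL1A+TNF). Neighbouring groups in this order overlapped within each of those steps. Neither eye side nor sex was a source of called differences among members at day 2: left against right called 0 genes and 0 members by limma (1310 genes at an unadjusted p under 0.05), and male against female called 0.363% of genes, or 0.297% without lens-rich retinas, and 0 members.

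The genes related to the members were read from lists in the same day 2 comparison of IL1A+TNF and PBS, in which 42.8% of genes were called without lens-rich retinas. Of 10 tested of the 13 other crystallin family genes, 2 rose, and they were not lens structural genes: Crym, which encodes a thyroid hormone binding protein, by 1.46 (SE 0.13, FDR 2.72e-13), and Crybg1, an intracellular beta-gamma domain protein, by 0.34 (SE 0.11, FDR 0.00871). Crygn had a difference of -0.83 (SE 0.36, FDR 0.0589). Crym also rose after IL1A alone, the only gene of this list called there. Of the 7 other small heat shock protein genes, 0 rose and Hspb3, a muscle member, fell by 0.80 (SE 0.26, FDR 0.00946). Hspb1, the widely expressed member, had a difference of 0.22 (SE 0.15, FDR 0.234), and Hspb2, which overlaps Cryab, had 0.11 (SE 0.26, FDR 0.776) at 0.341 to 1.07 CPM after IL1A+TNF.

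Of 14 heat shock response genes, 6 rose and 3 fell. Bag3, a co-chaperone that works with small heat shock proteins, rose by 0.63 (SE 0.09, FDR 3.18e-08) and Dnajb1 by 0.40 (SE 0.07, FDR 1.58e-06), whereas Hspa4l fell by 0.32 (SE 0.05, FDR 5.08e-08) and the heat shock transcription factor Hsf2 by 0.28 (SE 0.04, FDR 4.14e-07). Among 9 tested lens transcription factors, 3 rose and 4 fell. Maf and Sox2, which are also expressed by retinal glia, rose by 0.51 and 0.40 (FDR 1.64e-08 and 1.62e-06), and Meis1 fell by 0.09 (SE 0.02, FDR 0.00147). Of 5 reactive glia markers 4 rose, with Gfap, the intermediate filament of activated Müller glia and astrocytes, at 124 to 347 CPM (median 255) after IL1A+TNF and 45.6 to 167 CPM (median 91.6) after PBS. Summed markers of pigment epithelium and iris moved the other way, at 17.8 to 551 CPM (median 146) against 43.2 to 1205 CPM (median 348), and summed retina markers were 15079 to 27084 CPM (median 15569) against 24991 to 38160 CPM (median 31621). The part of these cell type markers in the Cryab and Crybb3 differences was not tested.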

How the data were processed

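PolyA RNA of 109 retinas was sequenced, and the authors deposited raw read-pair counts per gene for all retinas in a single table. Per the submitters' processing notes and the study's methods, reads were aligned to mm10 with STAR 2.7.9a and counted with featureCounts of Subread 2.0.1; the annotation release and strand setting are not given in the sources used here. Symbols and positions came from GENCODE M21, which named 35449 of 37315 rows. CPM values in the text are the raw counts divided by each retina's total count (30014757 to 79064488).

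Following the study's methods, counts were TMM normalized (edgeR 4.0.16) and fitted with limma 3.58.1 voom in R 4.3.3, with sex as a covariate, batch in the Sarm1 experiment, and mouse as a random block by duplicateCorrelation (within-mouse correlation 0.0515 at day 2). The filter by filterByExpr (minimum count 10, minimum total 15) and the repeat of voom and duplicateCorrelation over 2 rounds were choices made here. Mouse identity comes from the labels, so the eyes of a mouse are truly paired. P-values were Benjamini-Hochberg adjusted over all genes tested (FDR 0.05). The days 14 and 35 and the PBS series over days were fitted separately, the last without a mouse block. edgeR quasi-likelihood tests, DESeq2 1.42.0, other scalings, filters, blocks and covariates, and omission of single retinas in some fits served as alternatives. Exact sign-flip tests (scipy 1.17.1) compared the lens-only sum within mice, and correlations with Mip used 100000 permutations. The fit was tested on simulated counts.

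All 10 members were tested in every comparison and are given by name where they passed or a result turned on them, and otherwise as a range. Also named are the 10 genes closest to Mip and to Cryab over the day 2 PBS retinas, and up to 4 genes of each list by smallest FDR, apart from a few genes that are not reported here. The members and lists were chosen with earlier results of these data known. The limit for lens-rich retinas and every fit without them were added after seeing the data. SE is the standard error of a fitted difference and FDR an adjusted p-value, both from the fits over these retinas. Sampling error of low counts limits members under 1 CPM.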

Additional observations from a re-analysis of the deposited data

Results flagged for a closer look

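Cryaa, Cryab, Crybb3 and Mip were checked in 11 groups of 4 to 10 retinas for a single retina far from the rest (Dixon's criterion at 95%). With normally distributed values, chance meets it in about 1 of 20 groups. CPM values are skewed upward, so that rate need not hold here. With all retinas Cryaa met it in 11 groups, Crybb3 in 10, Cryab in 8 and Mip in 7, and every such retina was the highest of its group. In 8, 8, 8 and 7 of those groups the retina was lens-rich.

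The Sarm1-/- IL1A+TNF replicate 5 had the highest values of the series for the alpha crystallins and Crybb3, with 4134 CPM of Cryaa, 1290 CPM of Cryab and 262 CPM of Crybb3, but 36.0 CPM of Mip. The Sarm1-/- PBS replicate 1 had 3294, 1077 and 141 CPM of Cryaa, Cryab and Crybb3, and 149 CPM of Mip. The day 14 TNF replicate 4 had 3410, 909 and 105 CPM, and the highest Mip of all, 209 CPM. In batch 2 the WT IL1A+TNF replicate 3 had 2990, 1028 and 141 CPM with 92.0 CPM of Mip, and the WT PBS replicate 5 had 772, 250.4 and 40.4 CPM with 45.1 CPM of Mip. Of the day 2 retinas of batch 1, the IL1A+TNF replicate 6 had 1894, 629 and 98.2 CPM, the TNF replicate 5 had 1696, 562 and 96.0 CPM with 112 CPM of Mip, and the IL1A replicate 2 had 669, 288 and 46.6 CPM with 17.6 CPM of Mip.

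Retinas below the lens-rich limit were also set apart in groups that held no lens-rich retina. The day 14 PBS replicate 6 had 23.5 CPM of Cryaa and 1.47 CPM of Crybb3, the day 35 PBS replicate 4 had 33.9 CPM of Cryaa and 1.94 CPM of Crybb3, and the day 35 TNF replicate 8 had 29.8 CPM of Cryaa. The day 35 PBS replicate 4 is the retina on which the day 35 calls of Cryaa, Crybb2 and Crygs rest.

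After the lens-rich retinas were set aside, the criterion was met by Cryaa in 7 of 11 groups, by Crybb3 and Mip in 3 each and by Cryab in 2, again by the highest retina. Beside the day 14 and day 35 retinas above, Cryaa was far from its group in the IL1A replicate 5 (92.6 CPM), the day 14 TNF replicate 6 (51.4 CPM, with 2.68 CPM of Crybb3, also far from its group), the WT IL1A+TNF replicate 6 of batch 2 (3.57 CPM) and the Sarm1-/- PBS replicate 5 (1.42 CPM). Cryab was far from its group in the IL1A+TNF replicate 1 of batch 1 (83.5 CPM, with 37.9 CPM of Cryaa) and in the WT IL1A+TNF replicate 1 of batch 2 (87.9 CPM, with 0.0325 CPM of Cryaa). Mip was far from its group in the Sarm1-/- IL1A+TNF replicate 2 (4.46 CPM), the IL1A replicate 5 (2.55 CPM) and the day 2 TNF replicate 7 (1.70 CPM).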

How the results depend on the processing

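Setting the lens-rich retinas aside, an alternative chosen after seeing the data, raised the members called at FDR 0.05 from 1 to 2 for IL1A+TNF versus PBS at day 2, from 0 to 1 for IL1A versus PBS and for IL1A+TNF versus TNF, from 0 to 3 for PBS retinas by day, from 1 to 2 for WT IL1A+TNF versus PBS in both batches and from 0 to 2 in Sarm1-/-. Within those retinas, edgeR, DESeq2, RLE scaling, the lens-only covariate and library totals each gave 2 members for IL1A+TNF and 1 against TNF, and for IL1A 1 member, or 2 with the covariate or library totals. For PBS by day edgeR gave 1 and library totals 2, for WT in both batches both gave 2, and for Sarm1-/- edgeR gave 6, and library totals and batch 2 alone 2. With all retinas, IL1A+TNF versus PBS had 0 members called by edgeR, with no filter, with eye side and with the replicate block of mouse as a fixed factor, and 2 with a 1 CPM filter, library totals or quality weights. WT in both batches had 0 by edgeR, DESeq2, with no filter, in batch 2 alone and with the mouse as a fixed replicate block, and 2 with eye side or quality weights, and PBS by day had 8 by edgeR. For alternatives other than setting the lens-rich retinas aside, the share of all genes called is not given here. Those counts are therefore not read as particular to the members. The causes of these differences were not tested.

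With all retinas, the lens-only covariate called 8 members for IL1A, 7 for TNF, 7 for IL1A+TNF, 9 against IL1A, 10 against TNF, 9 beyond the sum, 5 for PBS by day, 3 for WT in both batches, 1 for Sarm1-/-, 1 for genotype in PBS and 6 for genotype in IL1A+TNF. It is built from other lens genes and is circular for the members. The share of all genes called with it is not given here. Reversed in sign for IL1A versus PBS were Cryab by edgeR (-0.057) and Crybb3 by edgeR (-0.31) and with the covariate (-1.06). The within-mouse lens-only sum for IL1A+TNF in batch 2 was 0.027 without the gamma crystallins. Without lens-rich retinas, r with Mip was 0.60 for Cryaa, -0.014 for Cryab, 0.58 for Cryba1, 0.54 for Cryba2, 0.47 for Cryba4, 0.59 for Crybb1, 0.56 for Crybb2, 0.46 for Crybb3 and 0.54 for Crygs.

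With all retinas, each was omitted in turn from the day 2 fit of batch 1, and each batch 2 retina from the joint fit. This gave 0 to 2 members for IL1A+TNF versus PBS and for WT in both batches. It gave 0 to 1 against TNF and in Sarm1-/-, and 0 to 0 in the other comparisons of those fits. No batch 1 retina was omitted from the joint fit, and none from the fits of day 14, day 35, eye side or all PBS retinas. Without the lens-rich retinas Cryab and Crybb3 were called for day 2 IL1A+TNF in 51 of 51 such fits (0.64 to 0.73 and 0.97 to 1.28). In Sarm1-/- they were called in 18 of 18, where only batch 2 retinas were omitted. DESeq2 gave no adjusted p for the 10 members in the day 2 fit of all retinas, which is not counted as lost calls. Leaving out lens-rich retinas changed the count over all genes from 128 to 9 for TNF, 1968 to 1094 against IL1A, 703 to 254 beyond the sum, 2988 to 1675 for genotype in IL1A+TNF and 1763 to 731 for genotype by treatment. Without lens-rich retinas, the replicate block of mouse as a fixed factor called 1 member, Cryab, for day 2 IL1A+TNF and for WT in both batches (Crybb3 FDR 0.664 and 0.408), 2 in Sarm1-/-, and 0 for IL1A and against TNF.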

Other observations

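The IL1A+TNF replicate 6 of batch 1 and PBS replicate 16 were the eyes of the 1 mouse in which both retinas were lens-rich, with 1894 and 517 CPM of Cryaa. The lens-rich retinas also differed in the gamma crystallins that are not among the 10 genes: Crygb was 28.6 CPM in the WT IL1A+TNF replicate 3 of batch 2 and 0.0615 CPM in the Sarm1-/- IL1A+TNF replicate 5, although their Cryaa was 2990 and 4134 CPM. Crygc was 15.7 and 0.676 CPM and Crygd 17.2 and 0.143 CPM in the same retinas. In the TNF replicate 7 at day 2, which was below the lens-rich limit, Crygb was 7.64 CPM with 39.1 CPM of Cryaa.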
